A study of Macaca mulatta with 36 samples.

Results

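MX1 and MX2 are 2 neighbouring antiviral GTPase genes, and this account follows them in the hippocampus of rhesus macaques that had SIVE, the encephalitis caused by simian immunodeficiency virus, and of uninfected controls. All probe sets whose single gene symbol is MX1 or MX2 were taken. These were 3 of the 52707 probe sets tested and stood for 2 of the 14132 genes named on the array. MX1 is read by 1 probe set (MmuSTS.3006.1.S1_at). MX2 is read by a brighter one (MmuSTS.1927.1.S1_at) and a dimmer one, words that describe the probes and not transcript amounts. No filter on low values was applied, so all 3 were tested.

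MX proteins are large GTPases of the dynamin superfamily, which assemble into rings or helices on membranes or on viral particles. Their genes are nearly silent in resting tissue and are switched on by type I and type III interferons, through a receptor, JAK kinases and a transcription factor that contains STAT2 and IRF9. Human MX1 (MxA) is cytoplasmic and is known for blocking influenza and other RNA viruses early in replication. Human MX2 (MxB) sits at the nuclear pore, binds the capsid of HIV-1 and hinders nuclear entry of the viral genome. MX transcripts are widely used as a readout of interferon exposure, also in brain.

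The study used 36 Affymetrix arrays for hippocampal RNA of 18 males, so that each animal has 2 arrays, named technical replicates in the labels. The 9 SIVE animals comprise 4 labelled as given an anti-CD8 treatment, all 6 years old, and 5 not given it, 2 to 5 years old. The 9 uninfected controls comprise 2 with the anti-CD8 treatment, 3 and 4 years old, and 7 without it, 3 to 8 years old. Antibodies to CD8 deplete CD8 T cells and are known to speed disease in infected macaques. The labels name no virus strain and every infected animal used here had encephalitis, so infection and encephalitis cannot be told apart. Values are RMA signals on the log2 scale, averaged over the 2 arrays of an animal.

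Duplicate arrays correlated across probe sets at 0.976 in Control 9 and at 0.992 to 0.997 in the other 17 animals. SIVE 2, SIVE 3 and Control 8, all with anti-CD8, stood apart in the 3′ minus 5′ signal of the GAPDH, ACTB and EEF1A1 control transcripts, a measure of RNA integrity, with 0.955 to 1.45 (log2) against 0.104 to 0.466 in the other 15. Of 15 listed hippocampal neuron markers 10 were measured and none was called different in SIVE by limma (all adjusted p above the threshold of 0.05). PROX1, a transcription factor of dentate granule cells, was at 8.44 in SIVE and 8.62 in controls, and the synaptic gene NRGN at 11.68 and 11.89. The median probe set level was 5.65. Of the 10 neuron markers GRIN1 lay below it in SIVE, at 5.58, and about level with it in controls, at 5.65.

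The first comparison asked how MX1 and MX2 differ between macaques with SIVE and uninfected controls. MX1 was far higher in every SIVE animal. Its signal ran from 11.21 to 12.60 with a median of 12.39 in the 9 SIVE animals, and from 7.20 to 8.49 with a median of 7.74 in the 9 controls. The lowest SIVE animal was SIVE 8 and the highest control was Control 6, the oldest animal at 8 years, so the groups did not overlap. Means were 12.21 ± 0.43 in SIVE and 7.73 ± 0.40 in controls (SD, n = 9 each). The difference was 4.48 ± 0.18 (SE, log2; limma adjusted p = 2.69e-12), a 22.4-fold rise with a 95% interval of 17.2 to 29.1.

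MX2 rose too, and by less. At the brighter probe set the SIVE animals lay between 7.59 and 9.25 with a median of 8.48, and the controls between 4.73 and 5.70 with a median of 5.27. The groups did not overlap: SIVE 8 was again lowest among SIVE animals, and Control 8 highest among controls. Means were 8.39 ± 0.52 in SIVE and 5.23 ± 0.31 in controls (SD, n = 9 each). The difference was 3.15 ± 0.19 (SE, log2; limma adjusted p = 7.54e-10), an 8.90-fold rise with a 95% interval of 6.77 to 11.7.

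The dimmer MX2 probe set gave the same direction. It lay between 6.08 and 7.28 with a median of 7.09 in SIVE animals, and between 3.79 and 4.77 with a median of 4.43 in controls, without overlap. SIVE 8 was lowest among SIVE animals at this probe set as well. The difference was 2.61 ± 0.16 (SE, log2; limma adjusted p = 1.18e-09), a 6.12-fold rise with a 95% interval of 4.85 to 7.72. Both MX2 probe sets had control means below the median probe set level, where array signal is compressed, so their folds can understate the change.

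As background, 4.92% of the 52707 probe sets passed the same test, 3.63% rose in SIVE and 1.3% fell, and in 1.2% all SIVE animals lay above all controls. All 3 MX probe sets belonged to those that rose and did not overlap. Ordered by their difference, the MX1 probe set stood 11th from the top, the brighter MX2 probe set 55th and the dimmer one 90th. The median difference over all probe sets was -0.04.

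**Figure D1:**
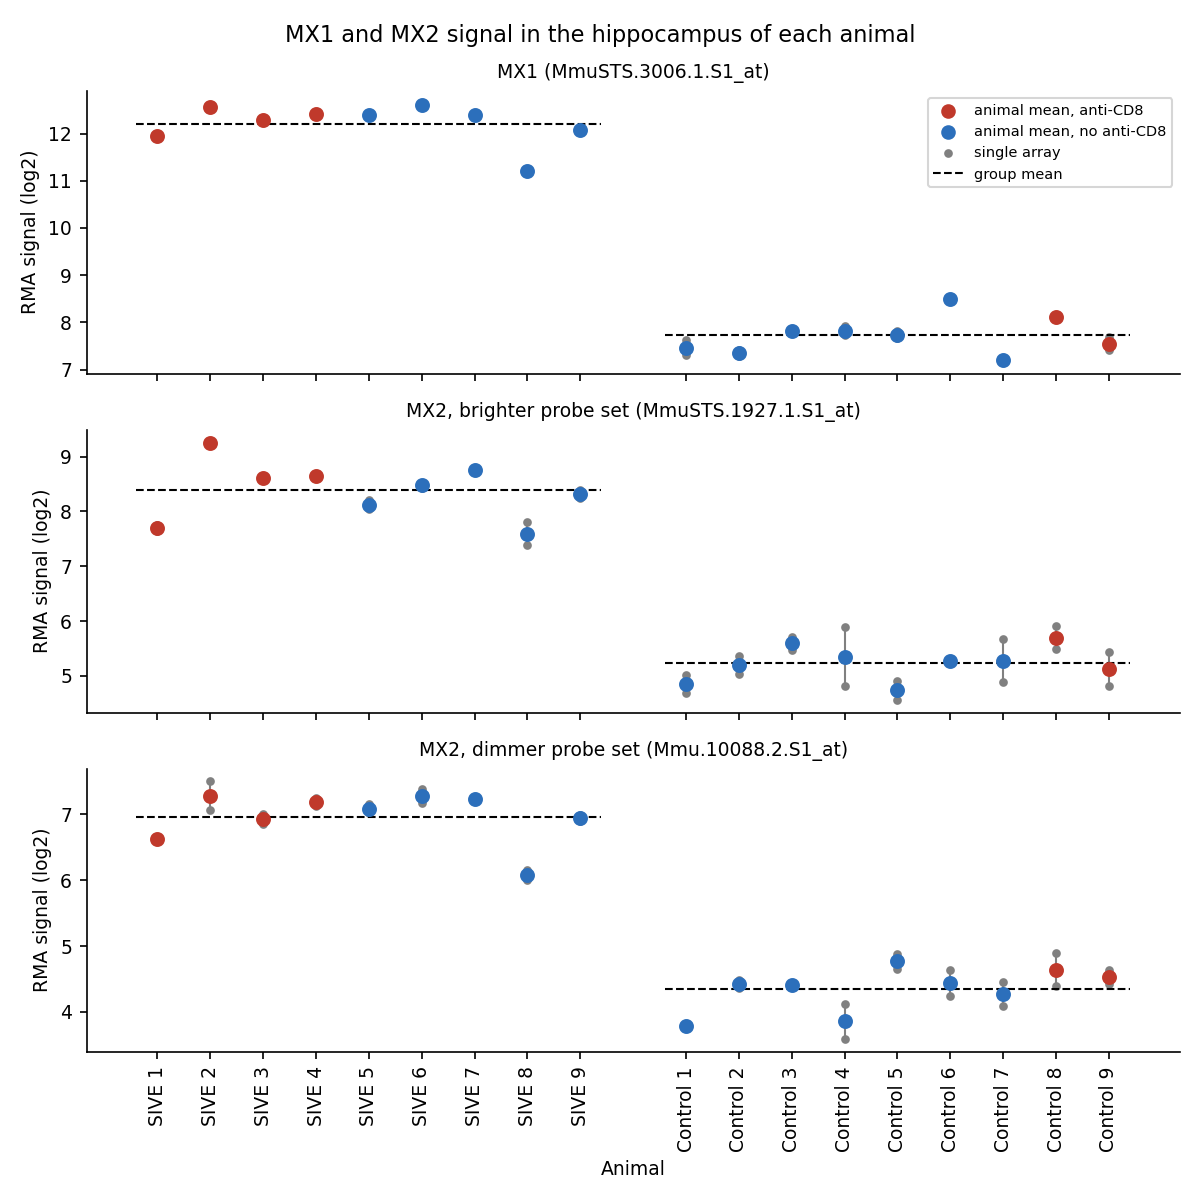
RMA signal (log2) of the 3 MX probe sets in each animal, SIVE on the left and control on the right. Large points are animal means coloured by anti-CD8 label, grey points the 2 single arrays joined by a line, and dashed lines the group means. All 9 SIVE animals lie above all 9 controls at each probe set, SIVE 8 is the lowest SIVE animal in all 3 panels, and the duplicate arrays of controls lie far apart for the brighter MX2 probe set.

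The rise of MX1 exceeded that of MX2. Per animal the MX1 minus MX2 signal (brighter probe set) was 1.33 ± 0.17 higher in SIVE than in controls (SE, log2, n = 9 each), a 2.51-fold larger ratio. All 9 SIVE animals lay above all 9 controls in it (exact permutation p = 4.11e-05, two-sided, the smallest that 48620 splits allow). Without anti-CD8 animals the value was 1.36. This compares the sizes of 2 differences and not transcript levels, and the compressed signal of MX2 in controls was not corrected for.

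Duplicate arrays show how well each group was measured. For MX1 the SD between duplicate arrays was 0.032 in SIVE animals and 0.118 in controls, against an SD between animals of 0.431 in SIVE and 0.398 in controls. The brighter MX2 probe set was less reproducible in SIVE animals than MX1, with 0.117 between duplicate arrays and 0.521 between animals. In controls it was 0.392 between duplicate arrays and 0.312 between animals, the second being an SD of means of 2 arrays. On that same scale array noise came to 0.277, near the spread between control animals. The widest pair was Control 4, whose 2 arrays read 4.81 and 5.89. The dimmer MX2 probe set had 0.136 between arrays and 0.393 between animals in SIVE, and 0.230 and 0.331 in controls.

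The second question was whether the rise depends on the anti-CD8 label. MX1 was at 11.94, 12.56, 12.29 and 12.41 in the 4 SIVE animals with anti-CD8, against 7.55 and 8.11 in the 2 controls with it. In the 5 SIVE animals without anti-CD8 it was at 12.39, 12.60, 12.40, 11.21 and 12.08, against 7.20 to 8.49 with a median of 7.74 in the 7 controls without it. The SIVE ranges of both labels overlapped, and so did the control ranges. The rise was 4.47 ± 0.35 with anti-CD8 (SE, log2; limma adjusted p = 9.80e-07) and 4.44 ± 0.23 without it (limma adjusted p = 1.76e-09).

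The brighter MX2 probe set read 7.70, 9.25, 8.61 and 8.65 in SIVE animals with anti-CD8, against 5.13 and 5.70 in controls with it. Without anti-CD8 it read 8.12, 8.48, 8.75, 7.59 and 8.32 in SIVE animals, against 4.73 to 5.59 with a median of 5.27 in controls. SIVE 2 held the highest MX2 signal of all animals and SIVE 1, of the same label, nearly the lowest among SIVE animals. The rise was 3.14 ± 0.35 with anti-CD8 (SE, log2; limma adjusted p = 6.45e-05) and 3.07 ± 0.23 without it (limma adjusted p = 1.74e-07). The dimmer probe set read 6.63, 7.28, 6.93 and 7.19 in SIVE animals with anti-CD8, against 4.53 and 4.64 in controls with it. Without anti-CD8 it read 7.09, 7.28, 7.24, 6.08 and 6.95 in SIVE animals, against 3.79 to 4.77 with a median of 4.41 in controls. SIVE 8 alone kept the untreated SIVE animals from a narrow range. The rise there was 2.42 ± 0.30 with anti-CD8 (limma adjusted p = 0.000208) and 2.65 ± 0.20 without it (limma adjusted p = 1.74e-07). As background, 1.05% of probe sets passed with anti-CD8 (0.844% rose and 0.209% fell) and 3.13% without it (2.34% rose and 0.791% fell). Under both labels SIVE animals and controls did not overlap at any MX probe set, as in 5.99% of all probe sets with anti-CD8, where the groups are small, and 2.53% without it.

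No difference between these rises was found. The rise with anti-CD8 minus that without was 0.03 ± 0.42 for MX1 (SE, log2), with a 95% interval of -0.85 to 0.92. For the brighter MX2 probe set it was 0.06 ± 0.42 with an interval of -0.82 to 0.95, and for the dimmer one -0.23 ± 0.36 with an interval of -0.98 to 0.53. With limma 0 of the 52707 probe sets passed for this difference (0% called; 1481 had an unadjusted p under 0.05). The intervals are wide enough to hold changes of the rise by up to 1.89-fold for MX1 and 1.93-fold for the brighter MX2 probe set. For the dimmer one the interval reaches down to 0.505 times the fold without anti-CD8. Equal rises are thus not shown.

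Within SIVE animals, anti-CD8 against none gave 0.17 ± 0.27 for MX1 and 0.30 ± 0.27 for the brighter MX2 probe set (SE, log2; limma adjusted p = 0.786 and 0.601). Within controls the values were 0.13 ± 0.32 for MX1 and 0.23 ± 0.32 for the brighter MX2 probe set (limma adjusted p = 0.830 and 0.696). The dimmer MX2 probe set stood at 0.08 ± 0.23 within SIVE and 0.31 ± 0.28 within controls (limma adjusted p = 0.890 and 0.544). In order of mean MX1 signal the groups ran from SIVE with anti-CD8 (12.30 ± 0.26, SD, n = 4) and SIVE without it (12.13 ± 0.55, n = 5) to controls with anti-CD8 (7.83 ± 0.40, n = 2) and controls without it (7.70 ± 0.42, n = 7). The 2 SIVE groups did not differ beyond their spread, nor did the 2 control groups. Of all probe sets, limma called 1 (0.0019%) within SIVE and 0 within controls (with an unadjusted p under 0.05, 8079 within SIVE and 8266 within controls). These counts shifted with the animals and arrays used. Within controls 769 were called without Control 5. Within SIVE 1930 were called with all 36 arrays and animals as a random block. Without Control 9 the only treated control is Control 8, which had the highest 3′ minus 5′ signal (1.45), so no count is given. All 4 treated SIVE animals are older than every untreated one, so age and treatment cannot be told apart there. Without SIVE 2, SIVE 3 and Control 8 the value of the brighter MX2 probe set within SIVE was -0.08. That within controls was -0.05, with Control 9 as the only treated control.

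**Figure D2:**
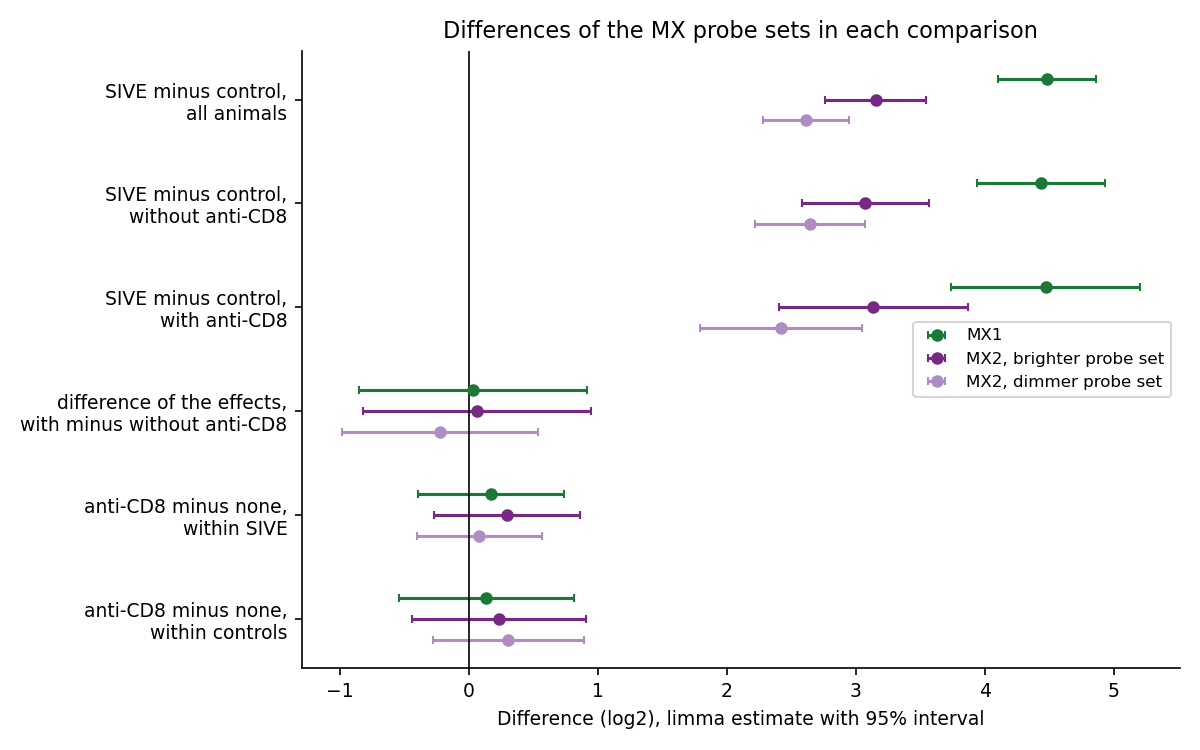
Limma differences (log2, with 95% intervals) of the 3 MX probe sets in the 6 comparisons. The SIVE differences lie between 2.42 and 4.48 with every interval above 0, while the intervals of all comparisons of the anti-CD8 label include 0.

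Animals with SIVE varied in MX signal, and the 2 genes varied together. Over the 9 SIVE animals MX1 and MX2 (brighter probe set) correlated with Pearson's r = 0.789 (exact permutation p = 0.00597, adjusted p = 0.0418 over 7 relations) and Spearman's rho = 0.750 (exact permutation p = 0.0255, adjusted p = 0.178). Without SIVE 8 and SIVE 1, the animals farthest from the MX1 median, r at the brighter probe set was 0.464 over 7 animals. They hold the lowest MX1 values, and leaving them out narrows the MX1 range, which can itself lower r. How far the relation rests on them was not tested. At the dimmer MX2 probe set r with MX1 was 0.981 (exact permutation p = 4.96e-05, adjusted p = 0.000347 over the 7 relations run with that probe set) and rho 0.95 (exact permutation p = 0.000353, adjusted p = 0.00247). Without SIVE 8 and SIVE 1 it was 0.865 over 7 animals, a value given without a test. The mean of both MX2 probe sets gave r = 0.911, and the 2 MX2 probe sets correlated with each other at 0.826 over the 9 animals, a description with no test. Leaving out 1 animal at a time gave an r of 0.724 (without SIVE 8) to 0.845 (without SIVE 5) at the brighter probe set, and of 0.933 (without SIVE 8) to 0.986 (without SIVE 3) at the dimmer one. With the brighter probe set and the arrays of technical replicate 1 alone r was 0.714 and its adjusted exact permutation p was 0.0992. Neither anti-CD8 label holds 6 SIVE animals, so no value was computed within a label.

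The array also carries 9 probe sets with 1 nucleotide accession and coding sequence numbers, taken here, from general knowledge, to be those of a simian immunodeficiency virus. The one brightest in SIVE lay between 7.53 and 11.22 in SIVE animals and averaged 3.54 in controls. No relation of its signal with the MX genes was detectable over 9 animals. Pearson's r was -0.251 with MX1 (exact permutation p = 0.539, adjusted p = 0.656) and 0.172 with MX2 (exact permutation p = 0.656, adjusted p = 0.656), and Spearman's rho was -0.217 and 0.217 (exact permutation p = 0.581 for each, adjusted p = 0.644). SIVE 6 had the highest MX1 and the lowest virus signal of the SIVE animals, 12.60 and 7.53. SIVE 8 had the lowest MX1 at 11.21 with a virus signal of 10.51. Without SIVE 6 and SIVE 9, r was -0.0081 for MX1 and 0.342 for MX2. The dimmer MX2 probe set gave r = -0.117 with the virus signal (exact permutation p = 0.769, adjusted p = 0.769).

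STAT2, a subunit of the factor that drives MX genes, was compared in the same way. Pearson's r with MX1 was 0.360 (exact permutation p = 0.325, adjusted p = 0.568) and with MX2 0.197 (exact permutation p = 0.623, adjusted p = 0.656). Spearman's rho was 0.383 and 0.183 (exact permutation p = 0.313 and 0.644, adjusted p = 0.547 and 0.644). Without SIVE 7 and SIVE 9, r was 0.437 for MX1 and 0.042 for MX2. The 3′ minus 5′ signal gave r = 0.365 with MX1 (exact permutation p = 0.315, adjusted p = 0.568) and 0.700 with MX2 (exact permutation p = 0.0366, adjusted p = 0.128), with rho of 0.517 and 0.617 (exact permutation p = 0.162 and 0.0857, adjusted p = 0.378 and 0.300). Without SIVE 2 and SIVE 3 these were 0.276 and 0.478. None of these relations passed after adjustment. At the dimmer MX2 probe set r with the 3′ signal was 0.322 (exact permutation p = 0.386, adjusted p = 0.541). The SIVE rise without SIVE 2, SIVE 3 and Control 8 was 4.47 for MX1, 3.06 for the brighter and 2.61 for the dimmer MX2 probe set.

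**Figure D3:**
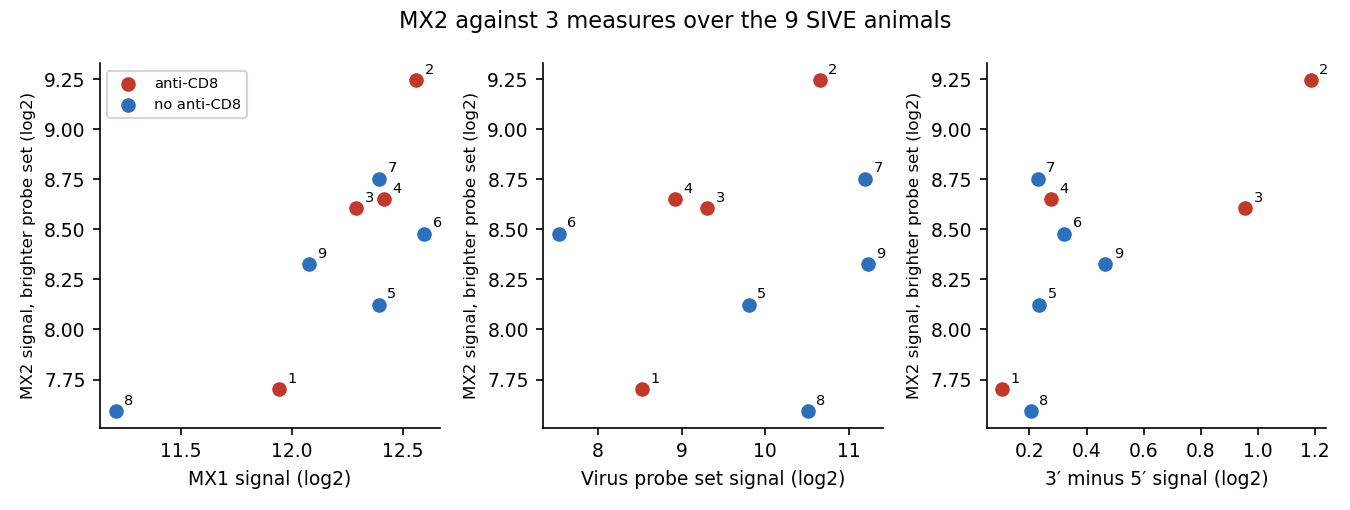
Signal of the brighter MX2 probe set (log2) in the 9 SIVE animals against MX1 signal, virus probe set signal and the 3′ minus 5′ signal of control transcripts (all log2), with animal numbers and anti-CD8 labels. MX2 rises with MX1 (r = 0.789), has r = 0.172 with virus signal, and its highest animal, SIVE 2, also has the highest 3′ signal.

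Genes whose signal followed MX1 or MX2 most closely over the 9 SIVE animals were taken from 10026 genes ranked by Pearson's r, a description with no test. Ranked were genes whose mean in SIVE was at or above the median probe set level, a filter that favours genes higher in SIVE. Closest to MX1 was ISG15, which interferon induces and which is conjugated to other proteins like ubiquitin, at r = 0.979 over the 9 animals and 0.949 over the 8 without SIVE 8. It was followed by MPO (0.973), RPL24 (0.962), PEG3 (0.962) and TMEM106B (0.942), which fell to 0.905, 0.846, 0.830 and 0.806 without SIVE 8. ISG15 and RPL24 rose in SIVE, with all 9 SIVE animals above all controls. MPO, the myeloperoxidase of neutrophils and monocytes, fell by 0.24 ± 0.06 (SE, log2; limma adjusted p = 0.0199) with its other probe set not called. Its probe set was dim, at 5.53 to 5.96 in SIVE animals and 5.86 to 6.18 in controls, near the median probe set level of 5.65. PEG3 at -0.07 and TMEM106B at -0.81 ± 0.49 did not pass. Of these 5 genes 2 thus rose, 1 fell and 2 were not called between groups.

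Closest to MX2 were ZNFX1, an interferon-induced helicase that senses viral RNA (r = 0.975 over the 9 SIVE animals), the proteasome inhibitor PSMF1 (0.95), AMBP (0.947), the exonuclease ISG20 (0.945) and PIK3AP1, a signalling adaptor of immune cells (0.944). These 5 values lay between 0.925 and 0.967 without SIVE 8. All 5 rose in SIVE by limma, from 0.44 ± 0.10 for PSMF1 (SE, log2; adjusted p = 0.0103) to 3.79 ± 0.25 for AMBP (adjusted p = 3.46e-09), whose other probe set was not called, as for PIK3AP1. The filter on SIVE level favours such genes, and the controls of AMBP (4.78 to 5.91) and PIK3AP1 (5.23 to 5.69) spanned the median level. Over all 14132 genes 5.72% rose, and the share among the ranked genes was not computed, so the count is no result about MX2. The place of the MX genes in each other's ranking turned on the MX2 probe set. Read at the brighter one, MX2 was 113th from the top of the MX1 ranking, and MX1 232nd in that of MX2. The dimmer MX2 probe set, at r = 0.981, would stand 1st in the MX1 ranking, ahead of ISG15.

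The remaining genes of the interferon pathway show where the MX rise stood. As background, 5.72% of the 14132 genes, each at its brightest probe set, rose in SIVE and 1.51% fell, with a median difference of -0.02. Ligands were dim and not called: IFNB1, a first interferon made after infection, was at 3.71 in SIVE and 3.72 in controls (difference -0.01 ± 0.06, SE, log2), and IFNG, the type II interferon, at 3.41 and 3.44. Among receptors, IFNAR2, the long-tailed chain of the type I receptor, rose by 1.21 ± 0.16 (limma adjusted p = 6.72e-05), although its other probe set was not called. IL10RB, a chain shared with the type III receptor, rose by 1.20 ± 0.17 (adjusted p = 0.000118). STAT2 rose by 0.95 ± 0.14 (adjusted p = 0.000127), from the factor that binds MX promoters.

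IRF7, which amplifies interferon production, rose by 1.61 ± 0.21 (SE, log2; limma adjusted p = 4.23e-05), with its other probe set not called, and IRF1, which responds to interferons, by 2.14 ± 0.19 (adjusted p = 2.63e-07). Of 30 listed signalling genes 17 were measured, 5 rose, none fell by limma, and the median was 0.26. Without SIVE 2, SIVE 3 and Control 8, 8 rose. IRF9, IFNAR1 and the brake USP18 have no probe set of their own in the table of names used here and were not analysed. Among the brakes, 10 of 13 were measured and 1 rose, the phosphatase PTPN6, by 0.66 ± 0.13 (adjusted p = 0.00528). SOCS1, which blocks JAK kinases, stood at -0.14 ± 0.09 and was not called (adjusted p = 0.356), and none fell (median 0.04).

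Interferon effectors other than the MX genes were mostly higher. Of 48 listed symbols, with DDX58 and RIGI naming the same gene, 32 were measured. By limma 26 rose and 1 fell, with a median of 2.73. Without SIVE 2, SIVE 3 and Control 8, 27 rose and 1 fell. The MX1 difference of 4.48 stood beside those of ISG15 (5.37 ± 0.19), IFI27 (4.49 ± 0.17) and IFIT3 (3.88 ± 0.09), and the brighter MX2 probe set at 3.15 beside PARP9 (3.19 ± 0.12; SE, log2). PARP9 is an ADP-ribosyltransferase partner in interferon signalling, and its other probe set was not called. The gene that fell was TRIM22 at -0.79, whose other probe set rose.

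Among the GTPase relatives of the MX proteins, the answer depended on the probe set read. Of 24 listed genes of the dynamin superfamily and interferon-induced GTPases 17 were measured, 2 rose and none fell by limma, also without SIVE 2, SIVE 3 and Control 8, with a median of -0.05 and differences from -0.23 to 0.32 at the brightest probe set of each gene. The 2 were EHD4, which shapes endosomes, at 0.32 ± 0.06 (SE, log2; adjusted p = 0.00162), and ATL3, which fuses endoplasmic reticulum tubules, at 0.29 ± 0.07 (adjusted p = 0.0109). DNM1, the dynamin of synaptic vesicle uptake, was at 10.91 in SIVE and 11.06 in controls and was not called (adjusted p = 0.375), and DNM1L was not analysed. The guanylate-binding proteins GBP1 and GBP2, GTPases induced chiefly by interferon gamma, were not called at their brightest probe sets (0.15 ± 0.21 and 0.07 ± 0.12). All 5 other GBP1 probe sets rose, 4 of them by 3.60 ± 0.26 to 4.58 ± 0.25 and 1 by 0.58 ± 0.10 (SE, log2; limma adjusted p from 6.70e-11 to 0.000692). Both other GBP2 probe sets rose, by 2.31 ± 0.31 and 3.09 ± 0.28 (adjusted p = 7.10e-05 and 3.24e-07). The GBP1 probe set with the largest difference was at 8.88 in SIVE and 4.30 in controls, so these rises were of the size of those of the MX genes. The other EHD4 probe sets were 1 higher and 1 not called, and the other ATL3 probe set was not called.

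Host proteins that meet the capsid or the pore, where human MX2 acts, were not called at their brightest probe sets. Of 27 listed capsid, nuclear pore and nuclear import factors 19 were measured, and by limma 0 rose and 0 fell, with a median of 0.09. Without SIVE 2, SIVE 3 and Control 8, 1 rose, the pore subunit NUP35. CPSF6, a capsid-binding mRNA processing factor, stood at 0.06 ± 0.13 (SE, log2; adjusted p = 0.834), NUP153, a pore protein bound by capsids, at 0.09 ± 0.07 (adjusted p = 0.496), and the import receptor KPNB1 at 0.29 ± 0.12 (adjusted p = 0.162), with its other probe set higher by 0.37 ± 0.09 (adjusted p = 0.0214). PPIA, the capsid-binding cyclophilin A, was not analysed.

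**Figure D4:**
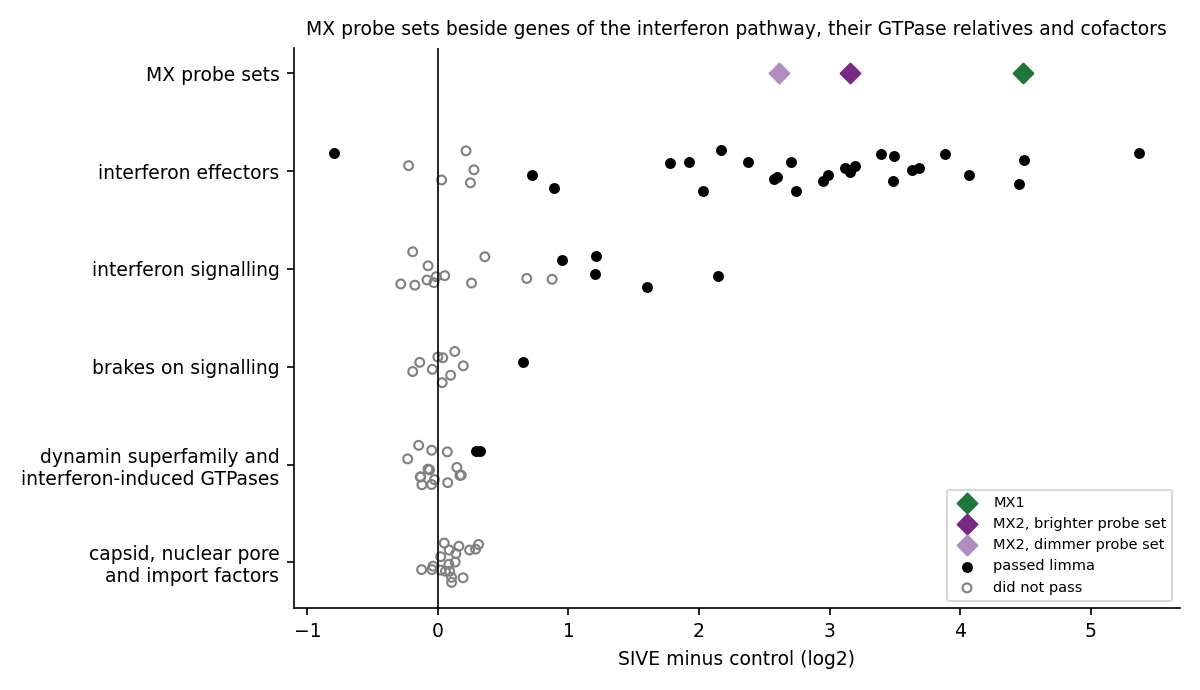
SIVE minus control difference (log2) of the 3 MX probe sets (diamonds) and of the measured genes of 5 lists, each at its brightest probe set, with filled points for genes that passed limma and open ones for those that did not. MX1 and MX2 lie within the range of the interferon effectors, and at their brightest probe sets the 17 GTPase relatives lie between -0.23 and 0.32 and no capsid or pore factor passed. All other probe sets of GBP1 and GBP2 and the other one of KPNB1 rose and are not drawn.

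MX1 and MX2 lie side by side on macaque chromosome 3 in the RefSeq annotation of assembly T2T-MMU8v2.0, used here for gene order only. Their nearest protein-coding neighbours are TMPRSS2, RIPK4 and PRDM15 on the MX1 side, and FAM3B, BACE2 and DSCAM on the MX2 side. These 6 genes have 16 probe sets, with differences from -0.25 to 0.50 (log2). By limma 2 of the 16 rose, 1 of FAM3B (0.49 ± 0.12, SE; adjusted p = 0.018), which encodes a secreted cytokine-like protein, and 1 of TMPRSS2 (0.23 ± 0.06; adjusted p = 0.0392), a membrane serine protease. The gene next to MX1 on that side is TMPRSS2, and its 2 other probe sets were not called. The single probe set that fell belongs to PRDM15 (-0.25 ± 0.05; adjusted p = 0.00708). Over all probe sets 3.63% rose and 1.3% fell. No neighbour approached the MX differences.

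**Figure D5:**
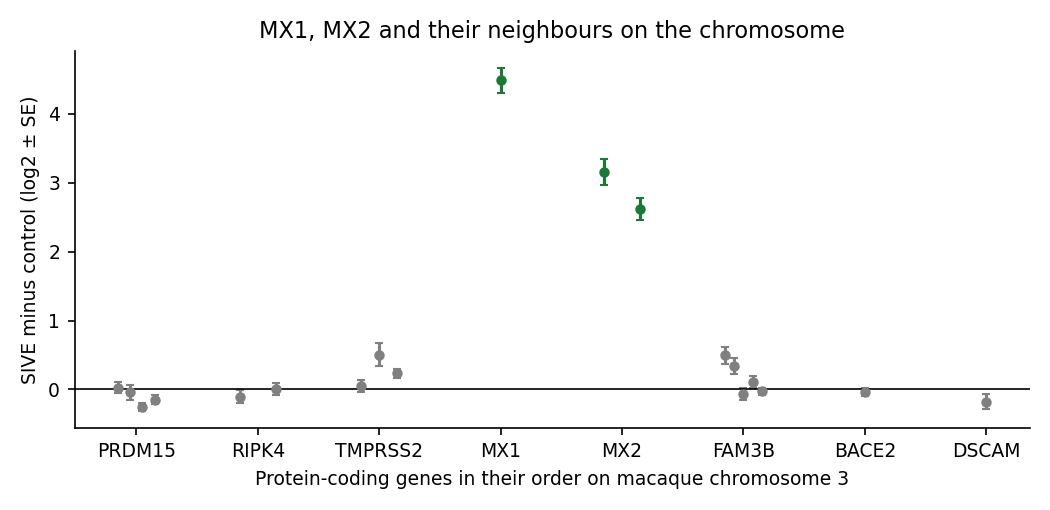
SIVE minus control difference (log2, with SE) of every probe set of MX1, MX2 and their 6 nearest protein-coding neighbours, in gene order along the chromosome. The 3 MX probe sets lie between 2.61 and 4.48 and the 16 others between -0.25 and 0.50.

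Some markers of cells that could carry MX transcripts also differed between SIVE and controls. In bulk tissue, more cells of a type and more RNA per cell cannot be told apart. By limma 5.72% of all 14132 genes, each at its brightest probe set, rose and 1.51% fell. Of 15 measured macrophage and myeloid markers 7 rose and none fell by limma, led by LYZ (2.71 ± 0.30, SE, log2), with a list median of 0.77. CSF1R, at 0.45 ± 0.24, was not called. CD68, MRC1 and ITGAM lay between -0.35 and -0.05 and were not called either, although the other CD68 probe set rose. The mean log2 level of that list ran from 7.53 to 8.33 in SIVE animals and from 6.68 to 7.20 in controls, without overlap. Array signals have no zero, and the dimmest of these markers in SIVE, MSR1, was at 4.43 in SIVE and 4.39 in controls. Of 5 microglia markers 1 rose (SLC2A5, 0.94 ± 0.19). The others, TMEM119, CX3CR1, P2RY12 and GPR34, lay between -0.55 and -0.10 and were not called, and the list median was -0.15. Of 8 T and cytotoxic lymphocyte markers 1 rose (GZMB, 2.36 ± 0.34), with a list median of -0.01. Of 6 B and plasma cell markers 1 rose (JCHAIN, 2.81 ± 0.41), with its other probe set not called and a list median of 0.10. Lists this small cannot set 1 riser apart from the share over all genes. MS4A1, a B cell marker that was not called, had 1 of its 3 other probe sets higher. CD79B was called lower without SIVE 2, SIVE 3 and Control 8. Of 8 endothelial markers 3 rose (VWF, PECAM1 and CDH5) and none fell, with a list median of 0.30. Both other PECAM1 probe sets rose, while the other one of VWF and that of CDH5 were not called. Of 5 astrocyte markers GFAP rose by 0.36 ± 0.08, with its other probe set not called, and SLC1A2 fell by 0.52 ± 0.11. The part of these cells in the MX differences was not tested.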

How the data were processed

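Hippocampal total RNA of 18 macaques was read on 36 Affymetrix rhesus arrays. The authors deposited log2 signals and name RMA in the submitters' processing notes, a method that removes background, quantile normalizes the arrays and combines the probes of a probe set. The log2 scale was read from the range of values, which ends at 14.49. The RMA version and probe definitions are not given in the sources used here. Array medians lie between 5.59 and 5.75. Precision is limited by how many animals were used.

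Of 52865 probe sets, 158 control and reporter sets were left out. Of all probe sets 24969 have 1 gene symbol, 361 several and 27535 none, and the names can be old. A gene in a list is read at its brightest probe set. The 2 arrays of an animal were averaged and counted as 1 replicate. The labels do not say whether the duplicates come from 1 RNA or from separate tissue pieces, so the SD between duplicate arrays can hold both.

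Comparisons used R 4.3.3 with two-sided moderated tests of limma 3.58.1 (lmFit and eBayes) over all 52707 probe sets with Benjamini-Hochberg adjustment and a threshold of 0.05. SIVE against control used 1 mean per group, and the comparisons by anti-CD8 label 1 mean for each of 4 groups with a shared spread. Both were tested on simulated data. Single values and relations over animals used exact permutation tests in Python 3.11.15 (numpy 2.4.6, scipy 1.17.1), over all 362880 pairings for relations. The relations with STAT2 were chosen after seeing the data, and a planned relation is not reported here.

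Same-numbered SIVE and control animals did not deviate together (correlations from -0.488 to 0.089 over 9 pairs), so no block was used. The members and gene lists were chosen with earlier results of these data known. Named list genes are the 4 with the smallest adjusted p of a list, not all of which are printed, and a set of pathway genes given whatever their values. IFNG, TRIM22 and MSR1, the neighbours on the chromosome, the relations of the dimmer MX2 probe set, the other probe sets of GBP1, GBP2 and KPNB1, the values without SIVE 8 and those without SIVE 2, SIVE 3 and Control 8 were chosen after values were seen. No protein or promoter sequence was used here.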

Additional observations from a re-analysis of the deposited data

Results flagged for a closer look

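SIVE 8 stood apart from the other SIVE animals in MX1. It was at 11.21, 0.739 (log2) below the next of the 9 animals, a gap of 0.531 of the group's range where 0.493 is the limit used. At the dimmer MX2 probe set it was at 6.08, 0.867 below the next of the 5 SIVE animals without anti-CD8, a gap of 0.722 of the range with a limit of 0.710. These were 2 flags among 15 groups examined, which share animals, and chance alone flags about 1 group in 20. Its duplicate arrays differed by 0.077 for MX1, by 0.417 for the brighter and by 0.152 for the dimmer MX2 probe set, and its virus probe set signal was 10.51. Without SIVE 8 the SIVE rise of MX1 was 4.61 and that of the dimmer MX2 probe set 2.72.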

How the results depend on the processing

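Of 537 values under alternatives, 509 kept their direction and their side of the threshold. In all animals the SIVE rise lay between 4.44 and 4.51 for MX1, 3.06 and 3.24 for the brighter and 2.56 and 2.66 for the dimmer MX2 probe set, and between 4.42 and 4.61, 3.05 and 3.25, and 2.54 and 2.72 when 1 animal was left out. With anti-CD8 the rises of 4.47 (MX1) and 3.14 (MX2) had an exact permutation p of 0.0667, the smallest that 4 against 2 animals allow. The relation of MX1 with MX2 fell short with technical replicate 1 arrays alone (r = 0.714), and the cause was not tested.

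The 25 reversals were all of values that were never called, 1 of them the relation of virus signal with MX2 (r = -0.117 at the dimmer probe set, chosen after seeing the data). For the difference of the rises, technical replicate 1 arrays gave -0.10 (MX1), -0.12 (brighter MX2) and 0.066 (dimmer MX2), repeated quantile normalization -0.065 (MX1), and leaving out SIVE 2, SIVE 3 and Control 8 -0.026 (brighter MX2). Without those 3 animals, anti-CD8 against none was -0.078 (brighter MX2) and -0.016 (dimmer MX2) within SIVE, and -0.15 (MX1) and -0.053 (brighter MX2) within controls. Technical replicate 2 arrays gave -0.0015 for MX1 within controls. Leaving out 1 animal gave -0.25 to 0.32 (MX1) and -0.22 to 0.35 (brighter MX2) for the difference of the rises, -0.063 to 0.29 (MX1) and -0.13 to 0.21 (dimmer MX2) within SIVE, and -0.15 to 0.42 (MX1) and -0.053 to 0.52 (brighter MX2) within controls. The ends for the difference of the rises and within controls each rest on a single treated control. The cause was not tested.

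The replicate block, for numbers that do not pair the animals, gave 4.48 for MX1 (limma adjusted p = 2.56e-07), 3.15 and 2.61 for the MX2 probe sets, and 1368 called probe sets against 2595. With the anti-CD8 label as covariate 5294 were called. Without anti-CD8, 1652 were called, against 3197 with all 36 arrays and animals as a random block and 2512 without SIVE 2, SIVE 3 and Control 8. With anti-CD8, 555 were called, against 355 without SIVE 4, 979 with technical replicate 2 arrays, 1043 with all arrays and 1661 without Control 5. Control 5 is no part of that comparison, and SIVE 2, SIVE 3 and Control 8 are no part of the one without anti-CD8. Leaving them out changed those counts only through the spread that the 4 groups share. Within SIVE 1 was called, against 1930 with all arrays. Within controls 0 were called, against 9 with all arrays, 284 with technical replicate 2 arrays and 769 without Control 5. Leaving out Control 8 or Control 9 leaves a single treated control, so such counts with anti-CD8 or within controls are not given. Promoter motifs could not be analysed, and exact permutation tests of the SIVE difference were run for MX1 and the brighter MX2 probe set.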
